A study of Sus scrofa with 6 samples.

Results

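The collagen genes of pig cerebral cortex are described here, with attention to COL25A1, a collagen that nerve cells carry on their surface. The members were all rows of the 6 expression files annotated as protein-coding whose symbol has the form COL, a number, A, a number. The rule found 38 such genes among 20288 protein-coding genes and 28965 genes in all, and 33 of the 38 had at least 10 reads in 3 or more libraries and were tested. The collagens came to attention because of the contrast of COL25A1 between genotypes in these same libraries, so its difference is given as a description without a test. Bulk RNA sequencing of polyadenylated RNA was done on cortex from 6 male pigs aged 140 days. In the deletion group, 3 animals carried a UBE3A maternal deletion, so the copy of the gene inherited from the father remained, and the wildtype group had 3 animals. The labels do not state which stretch of UBE3A was deleted, the litter or the breed, and each library came from 1 animal.

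Collagens are proteins of the extracellular matrix built from chains that wind into a triple helix. Fibrillar collagens form the fibres of connective tissue, network collagens form sheets such as the basement membrane, fibril-associated collagens decorate the fibres, and transmembrane collagens sit in the cell membrane and can be shed. The brain parenchyma holds little fibrous collagen, most of which lies in the meninges and around vessels, while basement membranes surround its capillaries. UBE3A encodes an enzyme that attaches ubiquitin to proteins. In neurons mainly the copy from the mother is active, and its loss causes Angelman syndrome in people.

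Total exon reads ranged from 21802529 to 28109327 in the deletion libraries and from 19796762 to 28126173 in the wildtype libraries, and the collagens took 0.0449% to 0.0684% and 0.0414% to 0.0738% of them. UBE3A had 330, 170 and 165 reads in the deletion libraries, against 2087, 2723 and 1823 reads in the wildtype libraries, so each library matched its label. Its log2 fold change of deletion over wildtype was -3.32 (edgeR adjusted p = 0.000432), and it was the only gene of 14556 tested that passed. Cortical markers were present, with the neuronal genes RBFOX3 and SNAP25 at means of 46.6 and 4197 TPM in deletion cortex and of 57.2 and 3948 TPM in wildtype cortex. Markers of every other cell type searched (GAD1 and GAD2 of inhibitory neurons, AQP4 and GFAP of astrocytes, MBP of oligodendrocytes, PDGFRA and CSPG4 of their precursors, CX3CR1 and P2RY12 of microglia, CLDN5 and PECAM1 of endothelium, PDGFRB and RGS5 of mural cells, DCN and LUM of fibroblasts, TTR and KCNJ13 of choroid plexus, HBB and HBM of blood) had reads as well, and no listed marker with a row was at 0 in all libraries. In bulk tissue, fewer cells of a type and less RNA per cell cannot be told apart.

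Levels between genes are compared in TPM, a measure of transcript abundance that is scaled for gene length and library size. A basement membrane chain had the highest mean of the family: COL4A2, a chain of the network that encloses brain vessels, averaged 40.8 ± 3.73 TPM in deletion cortex and 44.0 ± 4.28 TPM in wildtype cortex (SD, n = 3 each). The chains of type I collagen followed, with COL1A1 at 23.3 ± 16.9 TPM in deletion and 27.9 ± 20.4 TPM in wildtype cortex and COL1A2 at 24.4 ± 13.5 and 25.0 ± 13.4 TPM (SD, n = 3 each). COL4A2 was the highest member in 4 libraries and COL1A1 in the other 2, deletion replicate 2 (40.8 TPM, against 39.0 TPM for COL4A2) and wildtype replicate 1 (50.1 against 45.6 TPM). These SDs are wide enough that the order of COL1A1, COL1A2 and COL6A1, the next in rank, is not resolved. The leading 3 genes made up 38.4% of the summed TPM of all 38, and the fibrillar class as a whole 41.7%, the type IV chains 20.0%, the fibril-associated class 15.3% and the transmembrane class 4.79%. These ranks and shares leave out COL4A1, which has no symbol in the files and averaged 28.9 ± 1.65 TPM in deletion and 31.7 ± 5.37 TPM in wildtype cortex (SD, n = 3 each), second to COL4A2. With it the type IV chains made up 28.9%. COL25A1 stood 13th in the family, beside COL5A1 and COL5A2, and it had the highest mean of the transmembrane collagens over the 6 libraries. In deletion cortex the means of COL25A1 and COL23A1 were 4.22 and 4.21 TPM, and in deletion replicate 2 COL23A1 was higher (5.22 against 3.73 TPM). At the low end of the tested genes, COL8A2 averaged 0.455 TPM in deletion and 0.488 TPM in wildtype cortex.

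**Figure D1:**
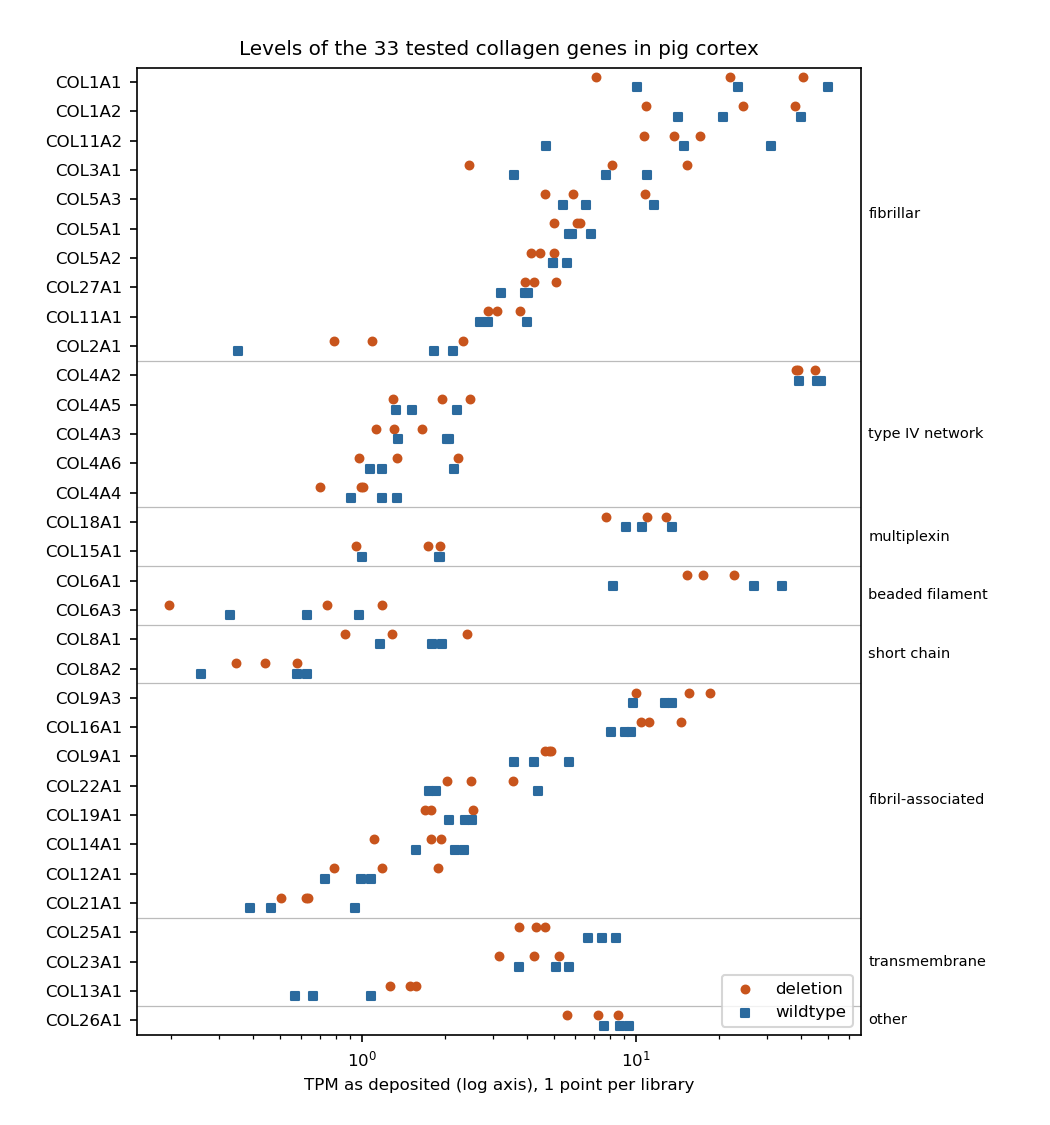
Deposited TPM (log axis) of each of the 33 tested collagen genes, 1 point per library, grouped by structural class, with the deletion libraries (circles) above the wildtype libraries (squares) in each row. COL4A2 sits in a narrow band near 40 TPM in all 6 libraries, whereas COL1A1 spreads from 7.12 to 50.1 TPM, and the COL25A1 circles lie left of its squares.

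Differences between groups are given as log2 fold changes of deletion over wildtype, from counts scaled by the TMM method (trimmed mean of M-values) and fitted over all tested genes. None of the 33 collagen genes passed edgeR's quasi-likelihood test at an adjusted p of 0.05, where 0.00687% of all genes tested did. Since the contrast of COL25A1 drew attention to the family, the counts of members called or apart that follow leave it out. At an unadjusted p under 0.05 there were 3 of 32 members (9.38%), where 7.28% of all genes did so. All 3 had higher means in deletion cortex (COL13A1, COL16A1 and COL27A1), where 3.31% of all genes were higher and 3.96% lower. The same 3 genes were the members whose deletion and wildtype libraries did not overlap, where 13.8% of all genes tested were apart in this way, 6.8% with deletion higher and 6.99% with deletion lower. The share of members apart was thus no higher than that of all genes counted in either direction. DESeq2's adjusted test called none of the 32, where it called 0.139% of genes. COL25A1 was lower in deletion cortex with groups apart and was called by DESeq2, from which nothing is read. The log2 fold changes were positive in 21 and negative in 12 of the 33, with a median of 0.05, against 0.0027 over all genes tested, of which 7351 were positive and 7205 negative. On the deposited TPM scale the median over all tested genes was -0.13, so a deletion mean in TPM stands lower against its wildtype mean than the TMM-scaled values do. Among the classes, the median log2 fold change lay between -0.14 for COL26A1, the sole tested gene of its class, and 0.17 for the 8 fibril-associated genes.

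**Figure D2:**
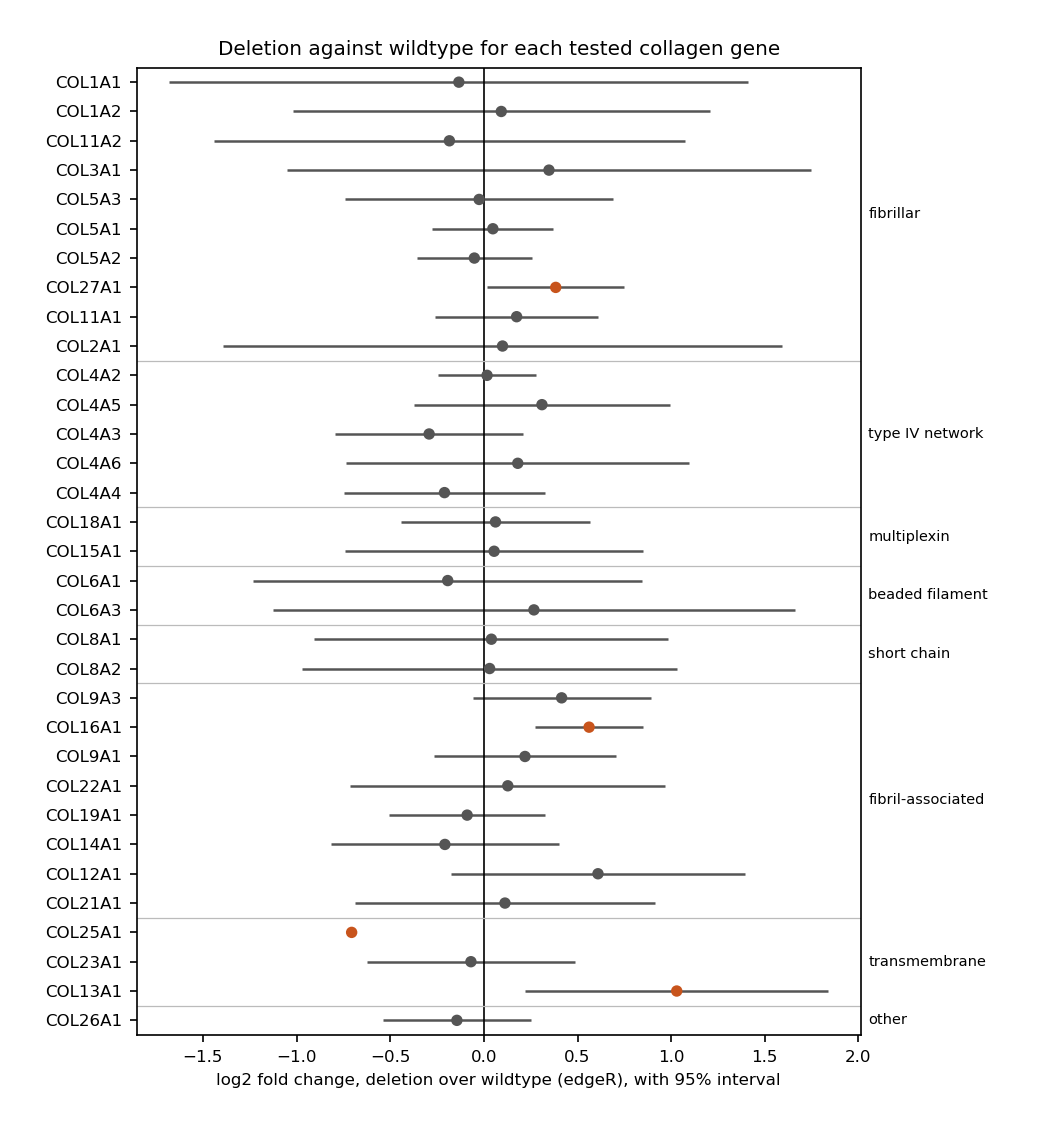
The log2 fold change of deletion over wildtype for the 33 tested collagen genes, with the 95% interval from edgeR (not drawn for COL25A1, whose contrast is a description), grouped by structural class. Orange points mark the 4 genes whose groups did not overlap, and the intervals of the other 29 cross 0.

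COL25A1 had the lowest log2 fold change of the family. It encodes a transmembrane collagen of neurons, also known as the collagenous Alzheimer amyloid plaque component, whose shed ectodomain is found in amyloid plaques, and in mice it is needed for motor axons to innervate muscle. Its row in the files is ENSSSCG00000039813. The deletion libraries held 353, 249 and 274 reads, against 431, 617 and 410 reads in the wildtype libraries. As CPM, read counts scaled to library size by TMM and used for all comparisons of 1 gene between libraries, these were 12.5, 11.4 and 12.8 in deletion cortex, against 18.2, 21.2 and 20.6 in wildtype cortex. All 3 deletion libraries were under all 3 wildtype libraries, which is the contrast that drew attention to the gene. The means were 12.3 ± 0.742 CPM in deletion and 20.0 ± 1.62 CPM in wildtype cortex (SD, n = 3 each), a log2 fold change of -0.71. On the per-length scale the values were 4.64, 3.73 and 4.29 TPM in deletion and 6.69, 8.45 and 7.52 TPM in wildtype libraries. Over 16 alternative settings on the same libraries, the log2 fold change ran from -0.77 to -0.66. In the authors' deposited table COL25A1 has a signed fold change of -1.63, in the same direction.

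Markers of inhibitory neurons were mostly lower in the same libraries, though none passed the adjusted test. Of 8 inhibitory neuron markers, 7 had negative log2 fold changes, with a median of -0.25, and 3 had a lower mean at an unadjusted p under 0.05, where 3.96% of all genes did so. The interneuron peptide SST measured 78.9, 86.2 and 125 CPM in deletion libraries, against 159, 165 and 159 CPM in wildtype libraries, and GAD2, which makes GABA, 84.3, 84.9 and 93.7 CPM against 144, 107 and 115 CPM. PVALB, of the fast-spiking interneurons, went the other way, at 42.3, 86.3 and 87.0 CPM in deletion libraries, against 58.7, 33.2 and 65.6 CPM in wildtype libraries. The summed level of the 8 markers ranged from 747 to 983 CPM in deletion and from 866 to 1203 CPM in wildtype cortex, so the sums overlapped. The 7 general and excitatory neuron markers had a median log2 fold change of -0.08, and their sum ranged from 5614 to 7422 CPM in deletion and from 5834 to 6762 CPM in wildtype cortex. Their part in the COL25A1 difference was not tested.

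COL16A1, a fibril-associated collagen found in microfibrils and near basement membranes, had the lowest p of the members other than COL25A1. It measured 34.1, 29.9 and 27.2 CPM in deletion libraries, against 19.1, 20.0 and 22.7 CPM in wildtype libraries, so every deletion library was above every wildtype library. Its log2 fold change was 0.56 (SE 0.13, 95% interval 0.27 to 0.85). edgeR gave it an unadjusted p of 0.00198 and an adjusted p of 0.675, so it did not pass over all genes. Its unadjusted p was under 0.05 in each of the 16 alternative settings, with adjusted values from 0.0989 to 0.96. The authors' deposited table gives COL16A1 a signed fold change of 1.49 and an adjusted p of 0.343. Astrocyte markers were mixed: of 6, 4 had positive and 2 negative log2 fold changes (ALDH1L1 at -0.34 and SLC1A3 at -0.074). GFAP and SOX9 had higher means at an edgeR unadjusted p under 0.05, where 3.31% of all genes tested did so. The summed level of the 6 markers did not overlap between groups. It ranged from 4082 to 4874 CPM in deletion and from 3328 to 4003 CPM in wildtype cortex. Most of it was GFAP, at 2668, 3159 and 2543 CPM in deletion and 2271, 2389 and 1870.3 CPM in wildtype libraries, and the part of astrocytes in the COL16A1 values was not tested.

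COL27A1, a fibrillar collagen known from developing cartilage, stood at 11.6, 12.2 and 15.5 CPM in deletion libraries, against 8.85, 10.0 and 11.2 CPM in wildtype libraries. The groups were apart by a narrow margin, between deletion replicate 1 and wildtype replicate 3. Its log2 fold change was 0.38 (SE 0.16, 95% interval 0.02 to 0.75, edgeR adjusted p = 0.675). The unadjusted p was 0.0419, and it was above 0.05 without deletion replicate 3 (0.174), wildtype replicate 1 (0.136) or wildtype replicate 2 (0.0772), with plain library sizes in place of TMM (0.0599) and with DESeq2 (0.0518). Without deletion replicate 3 the log2 fold change was 0.24, under the full value by more than 1.5 times. On the deposited TPM scale its groups overlapped.

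COL13A1 had the highest log2 fold change of the family and rested on few reads. It encodes a transmembrane collagen that helps to build the neuromuscular synapse. The deletion libraries held 43, 36 and 29 reads, against 25, 15 and 13 reads in the wildtype libraries. Scaled, these were 1.52, 1.65 and 1.36 CPM in deletion and 1.05, 0.516 and 0.652 CPM in wildtype cortex, and the groups did not overlap. On the log2 scale deletion exceeded wildtype by 1.03 (SE 0.35, 95% interval 0.22 to 1.84, edgeR adjusted p = 0.675). The unadjusted p was 0.0185, and it was above 0.05 without wildtype replicate 2 (0.0621) or wildtype replicate 3 (0.0532).

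**Figure D3:**
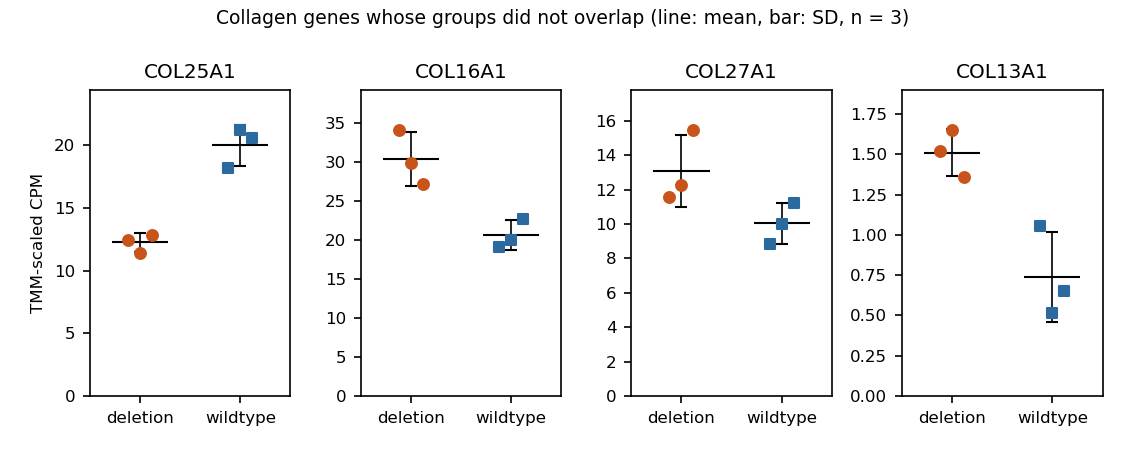
TMM-scaled CPM of COL25A1, COL16A1, COL27A1 and COL13A1 in each library (points), with the mean (line) and SD (bar) of 3 deletion libraries on the left and 3 wildtype libraries on the right of each panel, all axes from 0. The COL25A1 deletion points lie between 11.4 and 12.8 CPM, under all wildtype points, while the deletion points of the other genes lie above their wildtype points.

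Among the transmembrane collagens other than COL25A1, the tested genes were COL13A1, given above, and COL23A1. COL23A1, another shed membrane collagen, measured 9.69, 13.6 and 8.02 CPM in deletion libraries, against 13.1, 7.98 and 11.8 CPM in wildtype libraries. Its groups overlapped throughout, with a log2 fold change of -0.07 (SE 0.24, 95% interval -0.62 to 0.49). COL17A1, which anchors epithelia at hemidesmosomes, had 1 to 6 reads per library and was not tested. With COL25A1 left out, COL23A1 had overlapping groups and COL13A1 had a higher mean with groups apart, on few reads. Of all genes tested, 13.8% had groups apart.

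Several abundant fibrillar collagens varied widely between animals of the same genotype. COL1A1, which supplies the alpha 1 chains of type I collagen, measured 48.2, 102 and 17.3 CPM in deletion libraries, against 111, 20.5 and 52.3 CPM in wildtype libraries. Its partner COL1A2 measured 48.1, 84.9 and 23.9 CPM in deletion and 79.5, 26.2 and 41.5 CPM in wildtype libraries. In both genes deletion replicate 2 and wildtype replicate 1 were high, deletion replicate 3 and wildtype replicate 2 were low, and the groups overlapped. COL3A1, the companion of type I collagen in soft tissue and vessel walls, stood at 17.4, 37.1 and 5.81 CPM in deletion and 23.6, 7.16 and 16.8 CPM in wildtype libraries. The log2 fold changes of COL1A1, COL1A2 and COL3A1 were -0.13 (SE 0.68), 0.09 (SE 0.49) and 0.35 (SE 0.61), and their 95% intervals reached from -1.68 to 1.41, from -1.02 to 1.21 and from -1.05 to 1.75. Differences of 2-fold between genotypes in these genes were therefore not detectable here. Without deletion replicate 2 the log2 fold change of COL1A1 was -0.89, and without wildtype replicate 1 it was 0.62. With the fibroblast marker score as a covariate it was -0.63 (edgeR unadjusted p = 0.00921, adjusted p = 0.776), and with sample weights in limma-voom -0.80 (adjusted p = 0.60).

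Not all fibrillar chains varied in this way. COL5A1 and COL5A2, chains of the type V collagen that starts fibrils, had ratios of 1.31 and 1.28 between the highest and lowest library, against 6.38 for COL1A1, 6.39 for COL3A1, 7.17 for COL11A2 and 8.07 for COL2A1, the last a cartilage collagen at 0.654 to 5.27 CPM. COL5A1 averaged 19.7 ± 2.13 CPM in deletion and 19.0 ± 2.57 CPM in wildtype cortex, with a log2 fold change of 0.05 (95% interval -0.27 to 0.37). COL5A2 averaged 13.0 ± 1.79 CPM in deletion and 13.4 ± 0.311 CPM in wildtype cortex (SD, n = 3 each). COL11A2, a minor cartilage fibril chain, measured 44.4, 40.5 and 30.6 CPM in deletion libraries, against 81.0, 11.3 and 39.2 CPM in wildtype libraries, so that the 2 extremes were both wildtype. COL5A3, the remaining type V chain, followed another order of libraries, with 27.9, 13.8 and 17.0 CPM in deletion and 17.2, 28.2 and 14.3 CPM in wildtype libraries. The myelin gene MBP, a marker of oligodendrocytes, had its 2 highest values in the same libraries as COL5A3, at 12248, 5152 and 10622 CPM in deletion and 5439.8, 10914 and 5240.4 CPM in wildtype libraries, and its part in COL5A3 was not tested.

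At the median, the spread between animals was wider in the collagens than over all genes tested, though not in each member. The genes were not matched for level. Over the 6 libraries the median ratio of highest to lowest level was 2.05 for the 33 collagens, against 1.44 over all genes tested, and the median biological coefficient of variation in edgeR was 26.0%, against 15.0%. COL1A1, at 55.8%, stood at the 99th percentile of all genes tested, and COL4A2, at 11.4%, at the 19.8th. In 16 of the 33 collagens (48.5%) the 2 lowest libraries were deletion replicate 3 and wildtype replicate 2, where 5.91% of all genes tested had that pair lowest. In 10 of the 33 (30.3%) deletion replicate 2 and wildtype replicate 1 were also the 2 highest, against 1.28% of all genes, and this order of libraries was read from the collagens themselves. Fibroblast and meninges markers followed it: 5 of 9 had both pairs. Their mean log2 CPM, centred on the 6 libraries, was 0.11, 0.57 and -0.44 in deletion libraries and 0.22, -0.52 and 0.07 in wildtype libraries. ALDH1A2, a retinoic acid enzyme of the meninges, measured 2.30, 3.94 and 0.563 CPM in deletion and 3.08, 0.516 and 2.56 CPM in wildtype libraries. The beta-globin transcript HBB, a sign of blood, measured 10.8, 54.3 and 3.14 CPM in deletion and 42.0, 1.45 and 5.82 CPM in wildtype libraries. Smooth muscle markers of vessels (ACTA2, MYH11 and TAGLN) also had those 2 libraries highest. ACTA2, the actin of smooth muscle, measured 16.4, 76.4 and 15.5 CPM in deletion and 33.8, 11.2 and 22.0 CPM in wildtype libraries, and MYH11, its myosin, 16.5, 85.7 and 18.2 CPM against 34.8, 10.2 and 26.5 CPM. The part of fibroblasts, meninges, smooth muscle or blood in the collagen values was not tested.

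**Figure D4:**
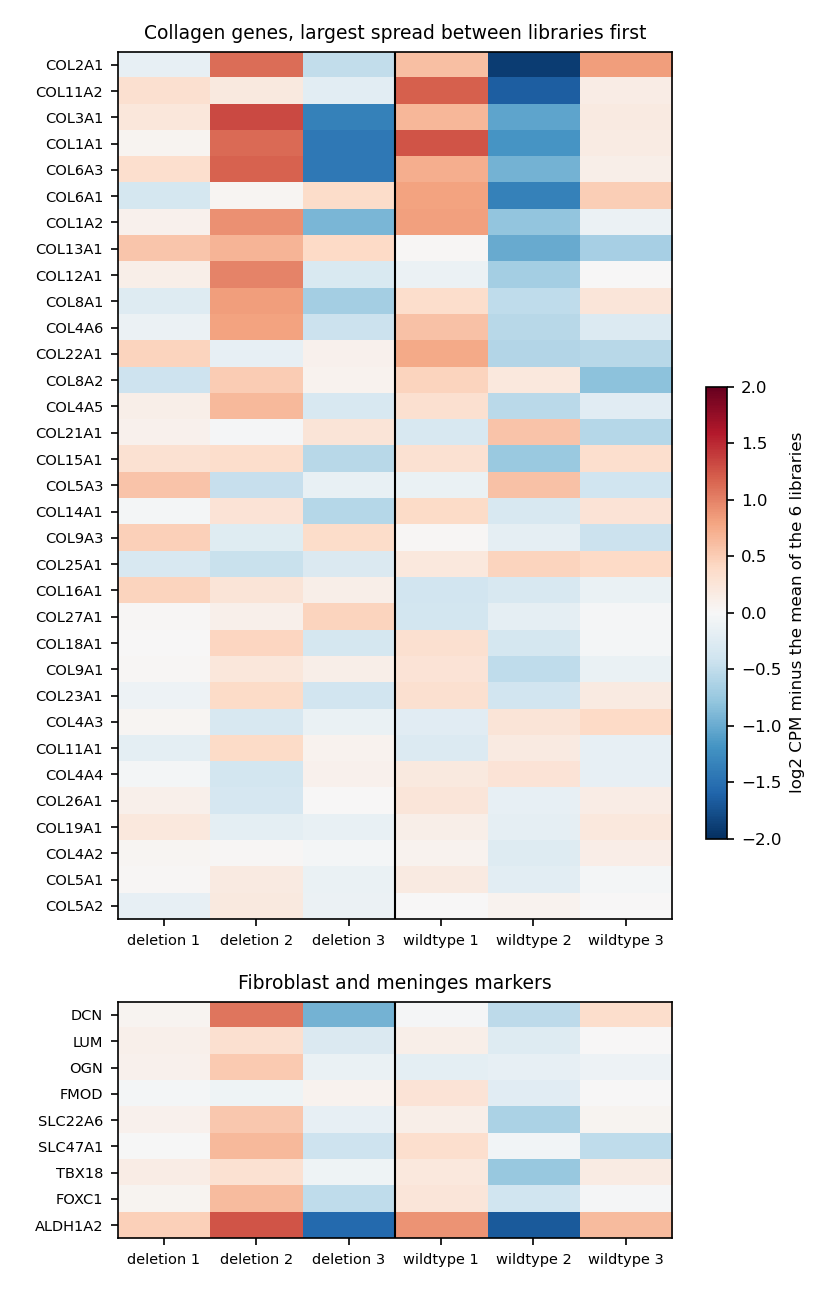
Log2 CPM of each tested collagen gene (upper panel, ordered by the ratio of highest to lowest library) and of 9 fibroblast and meninges markers (lower panel), each minus its mean over the 6 libraries, with the deletion libraries left of the black line and the wildtype libraries right of it. Most of the upper rows are red in deletion replicate 2 and wildtype replicate 1 and mostly blue in deletion replicate 3 and wildtype replicate 2, as are most marker rows, while COL25A1 is blue in all 3 deletion libraries.

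COL4A2, the most abundant type IV chain among the members, varied little between libraries, with a ratio of highest to lowest of 1.31. It measured 111, 109 and 105 CPM in deletion libraries, against 113, 90.0 and 118 CPM in wildtype libraries. Its log2 fold change was 0.02 (SE 0.11), and its 95% interval of -0.25 to 0.28 leaves room for differences of up to that size. Its obligate partner COL4A1 was outside the rule and was found by its identifier, which the table of gene names pairs with that name. It measured 31.1, 32.2 and 31.3 CPM in deletion and 37.4, 24.6 and 33.2 CPM in wildtype libraries, with a log2 fold change of -0.0065 (95% interval -0.36 to 0.34). Endothelial markers were level in the same way, with a summed 252 to 264 CPM in deletion and 224 to 285 CPM in wildtype cortex. The remaining chains, known best from kidney basement membranes, were scarce, with means of 0.901 to 1.91 TPM in deletion and 1.14 to 1.82 TPM in wildtype cortex. COL4A3 and COL4A4 had negative log2 fold changes (-0.29 and -0.21), and COL4A5 and COL4A6 had positive ones (0.31 and 0.18). Every one of these intervals crossed 0.

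Multiplexins, which carry endostatin-type fragments in vessel basement membranes, likewise overlapped between groups. COL18A1, the source of endostatin, measured 43.0, 57.6 and 33.8 CPM in deletion libraries, against 53.4, 33.6 and 41.9 CPM in wildtype libraries. COL15A1 measured 5.48, 5.64 and 3.00 CPM in deletion and 5.48, 2.65 and 5.57 CPM in wildtype libraries. Their log2 fold changes were 0.06 (SE 0.22) and 0.05 (SE 0.35). The type VI chains, which form beaded microfibrils, were represented by COL6A1 and COL6A3. COL6A1 measured 25.2, 32.9 and 41.5 CPM in deletion libraries, against 56.2, 12.7 and 45.1 CPM in wildtype libraries, so that its highest and lowest values were both wildtype (log2 fold change -0.19, SE 0.45). COL6A3 measured 3.33, 6.01 and 0.984 CPM in deletion and 4.38, 1.38 and 2.86 CPM in wildtype libraries. COL8A1, a short-chain network collagen of vessel walls and the cornea, measured 2.69, 5.78 and 2.02 CPM in deletion and 4.13, 2.27 and 3.81 CPM in wildtype libraries. None of these pairs of groups was apart.

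Fibril-associated collagens had the highest class median, with 6 of 8 positive log2 fold changes and COL16A1 as their sole member under an unadjusted p of 0.05. COL9A3, an alpha chain of the type IX collagen that coats cartilage fibrils, was the highest of them by TPM and measured 16.2, 9.86 and 15.0 CPM in deletion libraries, against 11.8, 10.4 and 8.63 CPM in wildtype libraries. Its log2 fold change was 0.42 (SE 0.21, 95% interval -0.06 to 0.89, edgeR adjusted p = 0.679), and deletion replicate 2 lay inside the wildtype range. Its partner chain COL9A1 measured 6.97, 8.03 and 7.45 CPM in deletion and 8.26, 4.82 and 6.22 CPM in wildtype libraries. COL12A1, which binds type I fibrils, had a log2 fold change of 0.61 (SE 0.34) that rested mainly on deletion replicate 2, at 9.91 CPM against 3.13 to 5.45 CPM in the other 5 libraries. COL14A1, a related fibril-binding collagen, averaged 5.65 ± 1.59 CPM in deletion and 6.55 ± 1.58 CPM in wildtype cortex. COL19A1, made by interneurons in mouse hippocampus, averaged 7.06 ± 1.12 CPM in deletion and 7.54 ± 1.06 CPM in wildtype cortex (SD, n = 3 each). Its groups overlapped. COL22A1 and COL21A1 had log2 fold changes of 0.13 (SE 0.37) and 0.11 (SE 0.35). COL26A1, outside the main classes, measured 9.69, 7.20 and 9.09 CPM in deletion and 10.7, 8.05 and 10.0 CPM in wildtype libraries, with overlapping groups.

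The read filter separated scarce members without regard to genotype. Just inside it were COL8A2 with 108 reads over the 6 libraries, COL13A1 with 161 and COL21A1 with 250. Just outside it were COL6A5 with 40 reads, COL6A6 with 34 and COL17A1 with 21. COL6A5 had 12, 15 and 2 reads in deletion libraries, against 4, 5 and 2 reads in wildtype libraries, and COL6A6 had 7, 4 and 3 against 6, 13 and 1. COL28A1, a collagen of peripheral nerve in mice, had 1, 4 and 3 reads in deletion libraries, against 0, 11 and 0 reads in wildtype libraries. COL10A1, the collagen of growth plate cartilage, had 0 reads in all 6 libraries, which at a limit of 3 reads allows up to 0.107 to 0.138 CPM per deletion library and 0.107 to 0.152 CPM per wildtype library, for counting error only. Of the 33 tested genes, 32 had at least 10 reads in all 6 libraries and COL8A2 in 5, so none entered through 1 group alone.

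Of 79 listed genes that make, bind or remove collagen, 66 were tested and none passed edgeR's adjusted threshold. At an unadjusted p under 0.05, 1 had a higher mean in deletion cortex and 2 had lower means, where 3.31% and 3.96% of all genes did so, and the median log2 fold change was -0.018. The one with the higher mean was PLOD2, a lysyl hydroxylase that prepares collagen for cross-linking, at 23.9, 19.9 and 23.6 CPM in deletion libraries, against 18.1, 18.4 and 15.8 CPM in wildtype libraries (log2 fold change 0.36, SE 0.13, edgeR adjusted p = 0.675). P3H2, a prolyl hydroxylase, had a log2 fold change of 0.42 (SE 0.19). Of the processing enzymes, the procollagen peptidase ADAMTS14 stood at -0.91 (SE 0.50) on few reads and the convertase FURIN, which sheds COL25A1, at -0.14 (SE 0.08). The cross-linking enzymes were mixed. LOXL2 stood at -0.67 (SE 0.55), with wildtype replicate 3 at 6.93 CPM and all other libraries at 1.48 to 2.51 CPM. LOX, LOXL1 and LOXL3 stood at 0.36 (SE 0.23), 0.32 (SE 0.20) and 0.05 (SE 0.18). Of the receptors, ADGRG1, which binds type III collagen in the developing cortex, stood at -0.20 (SE 0.11) and DDR2, a receptor kinase for fibrillar collagen, at -0.68 (SE 0.50). The collagenases MMP14 and MMP2 stood at 0.30 (SE 0.22) and 0.23 (SE 0.23).

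Among basement membrane partners of type IV collagen, LAMB1, a laminin chain, measured 56.7, 58.5 and 59.1 CPM in deletion libraries, against 69.0, 65.2 and 79.8 CPM in wildtype libraries (log2 fold change -0.30, SE 0.10, edgeR adjusted p = 0.675). Its vascular relative LAMB2 had a log2 fold change of 0.20 (SE 0.13). The genes listed as partners of COL25A1 were APP, its secretase BACE1, FURIN and the receptor phosphatases PTPRD, PTPRF and PTPRS, and all 6 had negative log2 fold changes with a median of -0.14. PTPRF measured 83.1, 68.0 and 77.6 CPM in deletion libraries, against 103, 99.9 and 90.8 CPM in wildtype libraries, a log2 fold change of -0.36 (SE 0.10, edgeR adjusted p = 0.675). PTPRD had a log2 fold change of -0.42 (SE 0.30). APP, the precursor of the amyloid peptide, averaged 1689 ± 59.4 CPM in deletion and 1733 ± 53.1 CPM in wildtype cortex (SD, n = 3 each), and its groups overlapped.

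**Figure D5:**
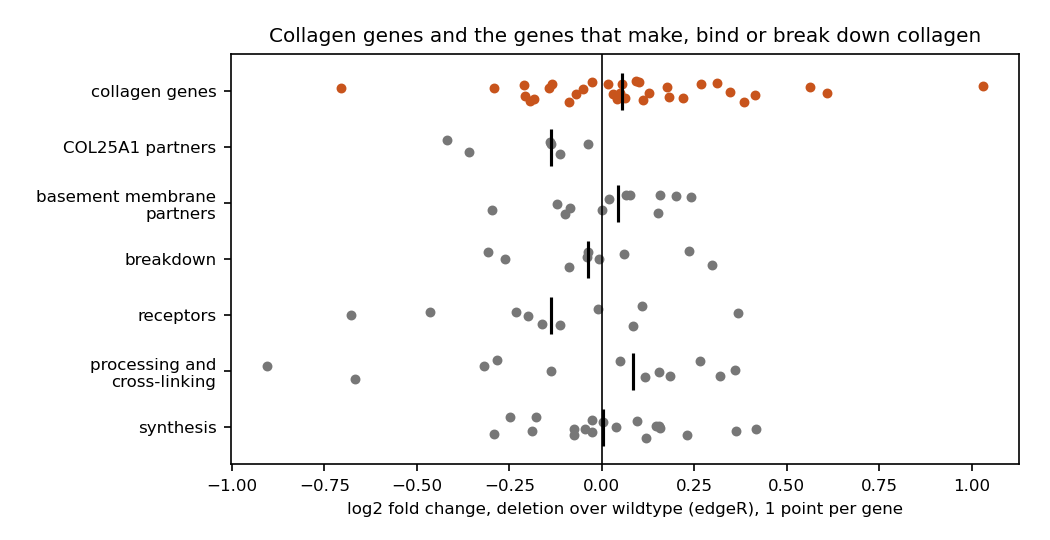
The log2 fold change of deletion over wildtype for each tested gene (points) of 6 lists of collagen-related genes and of the 33 collagens (orange, top row), with the median of each list as a black bar; vertical placement within a row is arbitrary. The medians lie between -0.14 and 0.08, and COL25A1 (-0.71) and COL13A1 (1.03) mark the ends of the collagen row.

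Several collagen genes lie next to each other, and neighbours did not share a direction throughout. By their order in RefSeq's annotation of Sscrofa11.1, which was used for order alone, 37 of the 38 members were placed and 4 pairs were immediate protein-coding neighbours. COL4A3 and COL4A4 had negative and COL4A5 and COL4A6 positive log2 fold changes, as given above. COL3A1 (0.35) and COL5A2 (-0.05) differed in sign, as did COL19A1 (-0.09) and COL9A1 (0.22). The authors' deposited table gives an adjusted p for 37 members, of which 0 are under 0.05, where 27 of 16992 genes are.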

How the data were processed

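RNA from cortex was sequenced as pairs of 150 bases from stranded poly(A) libraries, from RNA of integrity number above 6.1, per the labels' protocols. The sources used here name no aligner, counter or genome build and do not say whether strand was used in counting. The authors deposited whole-number counts of exon reads per gene and library, per the file headers, which were tested as they stand, an empty cell being taken as 0. Levels between genes rest on TPM values that the authors deposited too. A further table, also deposited by the authors, compares the groups by a signed fold change, here a score, and p-values, by a test that is not stated; its 6 columns of group CPM were not used.

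Genes with at least 10 reads in 3 or more libraries were scaled by TMM and compared with edgeR 4.0.16 (quasi-likelihood F test, robust, genotype alone) under R 4.3.3, and p-values were adjusted by Benjamini-Hochberg over all 14556 genes at 0.05. Library sizes were the reads in those genes. Standard errors were derived from each gene's fold change and F statistic, with 95% intervals. Groups came from the genotype labels. Each library has its own animal number in the labels. Replicates were numbered in accession order, so the numbers pair no animals. Libraries of a group differed beyond counting noise (chi-square 14.8 to 55.0 per degree of freedom), so none was a repeat sequencing of another. That they came from separate animals rests on the labels alone. On data simulated for this comparison (14415 genes fitted) the fit recovered 46% of genes with a 1.5-fold change. The recovered share was 74% for 2-fold, 96% for 3-fold and 100% for 8-fold, and 15 false calls stood beside 158 true ones. Only genes averaging at least 50 reads were changed, so this does not describe COL13A1, COL21A1 or COL8A2. Nor do these shares carry over to the other collagens. The 158 true calls ease the adjusted threshold, whereas in the data 1 gene passed. The collagens also had a higher median biological coefficient of variation (26.0%, against 15.0% over all genes tested).

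The members, the gene lists and the tests were chosen with earlier results of these data known. Genes named are UBE3A, COL25A1, collagens with an unadjusted p under 0.05 or groups apart, the 3 most abundant of each class, those nearest the read filter, the 2 of lowest p in each related list and the first 2 of each marker list, of which 1 is not reported here; others were chosen after their values were seen. Of 44 collagens assigned to classes, 6 had no row under that symbol, and those other than COL4A1 were not analysed here. Whether reads of similar chains were split by mapping is not stated. Alternatives were other filters, scalings and tests (DESeq2 1.42.0, limma 3.58.1), the animal-number prefix, leaving out mitochondrial genes or each library and, added after the data were seen, a fibroblast marker score. Precision rests on 3 animals per group and, for scarce genes, on few reads.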

Additional observations from a re-analysis of the deposited data

How the results depend on the processing

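No collagen gene passed the adjusted threshold in 15 of 16 alternatives; with DESeq2's Wald test 1 did (COL25A1), among 19 genes in all. The count of all genes was 2 without a filter on low counts and 1 to 2 when each library was left out (2 without deletion replicate 1). Collagens at an unadjusted p under 0.05 numbered 3 to 5 with COL25A1 counted, and they were not the same genes throughout. COL27A1 or COL13A1 dropped out in some settings, and COL9A3, COL12A1, COL22A1, COL6A1 or COL1A1 came in. In the main edgeR fit 7.28% of all genes tested were under 0.05, and that share was not taken in the other settings. Since the contrast of COL25A1 drew attention to the family, nothing is read from its p-values in any setting. No related gene passed in any setting. The median collagen log2 fold change ran from -0.09 without deletion replicate 2 to 0.25 without wildtype replicate 1. UBE3A passed throughout.

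Directions of some overlapping members depended on the setting. Those of COL26A1, COL4A3, COL4A5, COL9A1 and COL9A3 kept their sign in all 16 alternatives. Overlapping members not named in this paragraph were not followed by setting. With sample weights in limma-voom the log2 fold changes of COL15A1, COL18A1, COL1A2, COL4A2, COL6A3 and COL8A1 were -0.20, -0.11, -0.38, -0.031, -0.48 and -0.24. With the fibroblast marker score as covariate they were -0.11, -0.074, -0.26, -0.012, -0.29 and -0.27, and COL8A2 was -0.014. With plain library sizes COL4A2 and COL8A2 were -0.016 and -0.0077. With the animal-number prefix COL11A2 and COL1A1 were 0.040 and 0.085. When each library was left out, values ran from -0.64 to 0.62 (COL11A2), -0.23 to 0.29 (COL15A1), -0.16 to 0.25 (COL18A1), -0.89 to 0.62 (COL1A1), -0.44 to 0.63 (COL1A2), -0.091 to 0.55 (COL21A1), -0.30 to 0.084 (COL23A1), -0.094 to 0.093 (COL4A2), -0.61 to 0.21 (COL6A1), -0.38 to 0.72 (COL6A3), -0.52 to 0.31 (COL8A1) and -0.24 to 0.26 (COL8A2). The cause of these changes was not tested. Uniquely mapped reads were not compared, since total exon reads alone were used. No paired analysis was possible because the labels give no replicate numbers shared between groups. Depth limits the scarce members, of which COL13A1 rested on 13 to 43 reads per library.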

Other observations

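The TPM of COL1A1 over that of COL1A2 was 0.90, 1.08 and 0.654 in deletion libraries and 1.25, 0.705 and 1.13 in wildtype libraries. The ratio of COL5A3 to COL5A1 was 1.72, 0.763 and 1.17 in deletion and 0.955, 2.05 and 0.924 in wildtype libraries, so it was highest in deletion replicate 1 and wildtype replicate 2. In deletion replicate 1 the choroid plexus transcript TTR stood at 17.2 CPM, against 0.619 to 1.51 CPM in the other 5 libraries. All 4 tested choroid plexus markers had positive log2 fold changes, and 2 had an edgeR unadjusted p under 0.05, where 3.31% of all genes were higher. Their summed level was 55.9, 38.6 and 28.6 CPM in deletion and 29.3, 27.2 and 25.6 CPM in wildtype libraries, so the sums overlapped. The part of choroid plexus in the collagen values was not tested.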
